A study of Mus musculus with 4 samples.

Results

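To describe receptors for neurotransmitters in the sorted retinal fractions, 59 genes were taken by a rule on their symbols from the 21828 genes of the RNA-seq tables. They comprised 25 glutamate receptor subunits (AMPA, kainate, NMDA, delta and metabotropic receptors), 17 GABA receptor subunits (Gabra, Gabrb, Gabrg, the rho subunits Gabrr, and Gabbr1 and Gabbr2), 5 glycine receptor subunits (Glra1 to Glra4 and Glrb) and 12 nicotinic acetylcholine receptor subunits (Chrna and Chrnb). RNA was measured in 4 libraries from retinas of FVB/N mice given no particular treatment, namely P1 pHes1_ENC, P1 pHes1_EPC, P4 pHes1_ENC and P4 pHes1_EPC, with 1 library for each fraction at postnatal day 1 and at postnatal day 4. All mice carried a transgene in which a promoter fragment of Hes1 drives a destabilized EGFP, and a cell sorter separated EGFP-positive cells (pHes1_EPC) from the remaining EGFP-negative retinal cells (pHes1_ENC). The promoter is active in retinal progenitors as well as in Müller glia, so at these ages pHes1_EPC are not a pure glial population. Whether a library came from 1 retina or from pooled retinas is not given in the sources used here.

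The retina signals by glutamate, GABA, glycine and acetylcholine. AMPA, kainate, NMDA, GABA-A, glycine and nicotinic receptors are ion channels assembled from several subunits encoded by different genes, whereas metabotropic glutamate receptors and GABA-B receptors act through G proteins. Photoreceptors and bipolar cells release glutamate, horizontal and amacrine cells release GABA or glycine, starburst amacrine cells release acetylcholine, and Müller glia take up transmitters and carry transmitter receptors of their own.

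With 1 library in each group there was no replicate, so no test was made and no p-value is given. Expression is in FPKM, the number of fragments scaled to the length of the exons and to the size of the library, and the ranges in parentheses after an FPKM are the 95% intervals that Cufflinks reported. Those intervals cover counting error only and say nothing of the spread between animals or sorts. A difference is the difference of log2(FPKM + 1), a gene counts as higher or lower past a difference of 1 (2-fold), and this scale understates the change of genes with low FPKM. A ratio of FPKM is given with the range that the interval ends allow. In these bulk fractions, fewer cells of a type and less RNA per cell cannot be told apart.

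Among the 59 subunits, 4 were more than 2-fold higher in pHes1_EPC at P4, beside 9.85% of all genes, among them Glrb, Gria4 and Gria2. The 250 bases before the start of Glrb, Gria2 and Gria4, taken from RefSeq promoters of build GRCm38.p6, are shown because these genes carry the pHes1_EPC side of the results. Each sequence occurred exactly 1 time in the mm9 genome, at the mm9 position given. Capitals mark CACGCG on either strand (written CGCGTG where it lies on the other strand), the core of a site to which Hes repressors bind, and the other letters are in lower case.
Glrb (chr3:80717583-80717832, minus strand): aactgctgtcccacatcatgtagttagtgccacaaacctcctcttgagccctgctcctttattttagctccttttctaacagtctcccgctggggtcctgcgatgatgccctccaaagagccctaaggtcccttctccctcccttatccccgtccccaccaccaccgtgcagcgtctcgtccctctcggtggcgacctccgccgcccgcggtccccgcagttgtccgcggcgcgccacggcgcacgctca
Gria2 (chr3:80606758-80607007, minus strand): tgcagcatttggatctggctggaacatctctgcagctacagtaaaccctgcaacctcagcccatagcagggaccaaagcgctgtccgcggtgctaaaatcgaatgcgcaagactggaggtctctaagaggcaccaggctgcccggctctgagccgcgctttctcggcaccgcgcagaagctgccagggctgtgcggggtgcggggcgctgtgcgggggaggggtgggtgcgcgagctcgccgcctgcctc
Gria4 (chr9:4796235-4796484, minus strand): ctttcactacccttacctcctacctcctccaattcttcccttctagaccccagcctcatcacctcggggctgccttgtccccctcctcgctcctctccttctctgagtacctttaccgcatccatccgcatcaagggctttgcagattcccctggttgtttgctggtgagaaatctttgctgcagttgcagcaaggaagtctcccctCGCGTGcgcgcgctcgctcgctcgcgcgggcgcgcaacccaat
The promoter of Gria4 held CACGCG 43 bases before the start, and those of Glrb and Gria2 did not hold these letters. GC content was 62.4% before Glrb, 64.8% before Gria2 and 58.8% before Gria4, beside a median of 60.4% over the 41 subunit genes with an entry and of 52.4% over all 32851 promoters of the table. The median of 60.4% took the first entry of each gene, and over all 49 entries of these genes it was 58.8%. Of the 41 subunit genes, 5 held CACGCG (Gria4, Grik3, Grik4, Grin1 and Grm8), and so did 7.62% of all promoters of the same length. For this and the other motifs a subunit gene counted if any of its entries held the letters. The shares of all promoters count single entries, so the units differ. The E-box CACGTG, which reads the same on both strands, was in 2 subunit promoters and in 6.02% of all. GGATTA, a core bound by photoreceptor homeodomain factors, was in 2 and in 6.25% of all. ACAATG, a core of Sox sites, was in 5 and in 10.7% of all, and TATAAA was in 5 and in 12.4% of all. TTCAGCACC, the first letters of the element bound by the neuronal repressor REST, was in the promoter of Grm2 alone and in 0.301% of all. A match of letters is a description and not a binding site.

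More receptor subunits were detected in pHes1_ENC than in pHes1_EPC at P1, and about as many at P4. At P1, 29 of the 59 subunits had an FPKM of 1 or more in pHes1_ENC and 15 in pHes1_EPC. At P4 the counts were 20 and 18. As a share of the subunits these were 49.2%, 25.4%, 33.9% and 30.5%, beside 55.5%, 53.6%, 52.5% and 54.7% of all genes in the same 4 libraries. The FPKM of the 59 subunits summed to 303 in pHes1_ENC and 94.6 in pHes1_EPC at P1, and 207 and 128 in these fractions at P4. The subunit with the highest FPKM was Gabbr1 in P1 pHes1_ENC (35.3), Grik3 in P4 pHes1_ENC (39.1) and Grik5 in both pHes1_EPC libraries (24.5 at P1 and 22.1 at P4). Of the 59 subunits, 12 had an FPKM of at least 1 in all 4 libraries, and 27 stayed below 1 in all of them, of which Gabra6, Chrna9 and Chrna10 were listed at 0 throughout. Cufflinks gave all 59 subunits the status OK in each library.

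**Figure D1:**
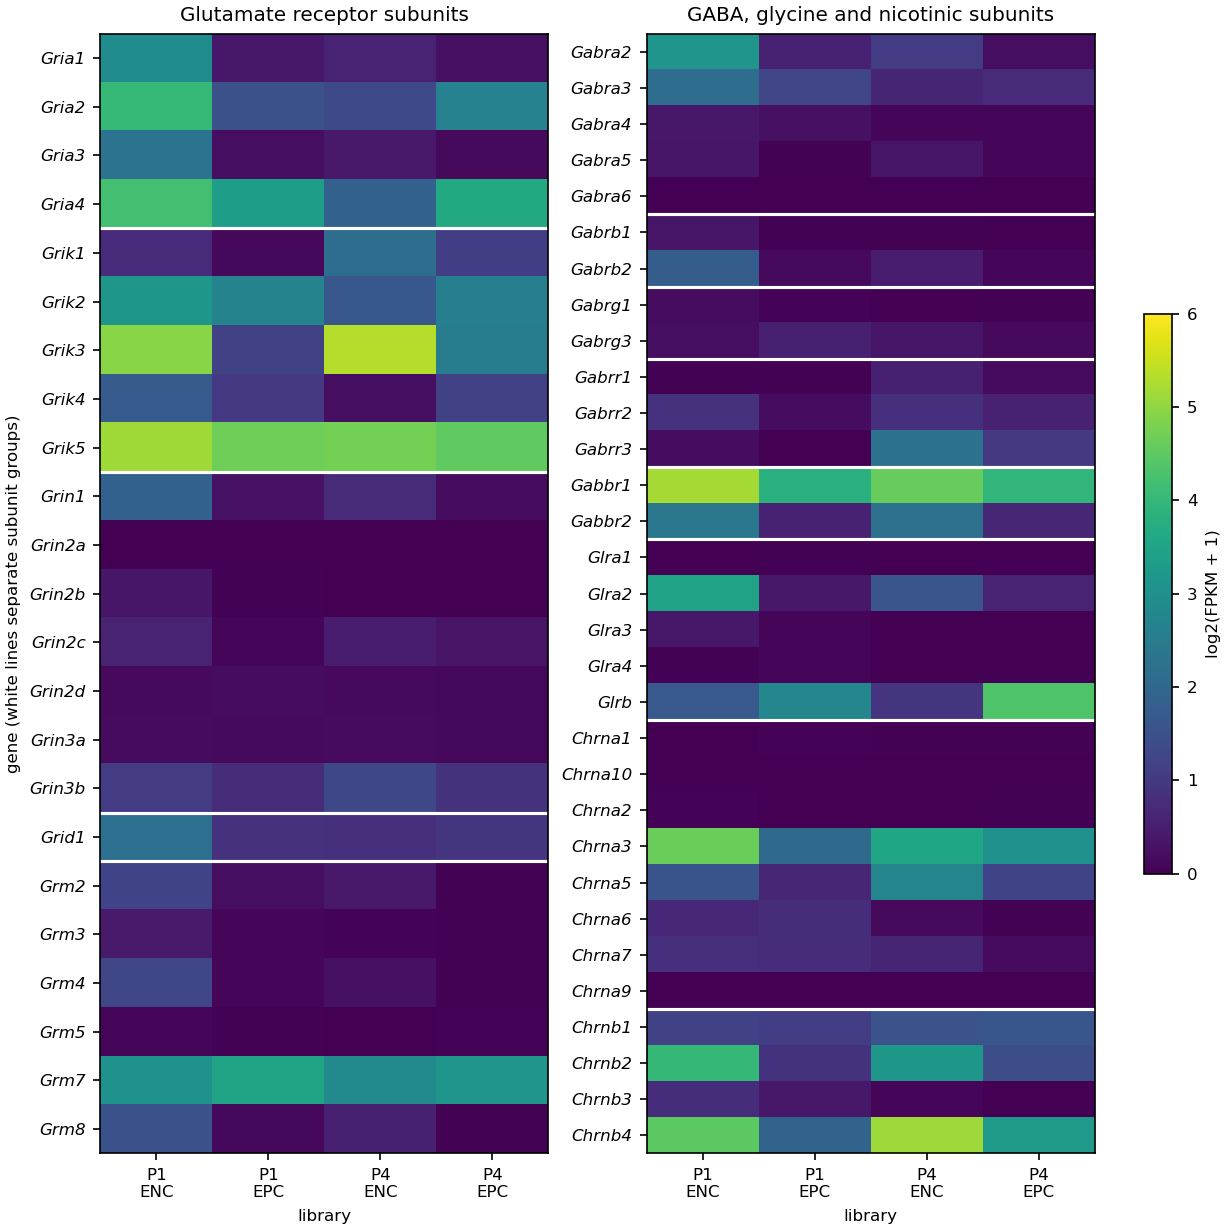
Expression of 54 of the 59 receptor subunits, with 1 row for each gene and 1 column for each library, as log2(FPKM + 1) by colour. Grik5, Gabbr1, Grm7 and Gria4 are bright in several columns, the P1 pHes1_ENC column is the brightest, and most Grin, Gabra and Chrna genes are dark in all columns.

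At P1, pHes1_EPC expressed most detected subunits at a lower level than pHes1_ENC. In pHes1_EPC 18 of 59 subunits were more than 2-fold lower and 2 were more than 2-fold higher, while 6.79% of all 21828 genes were lower and 6.1% were higher. The median difference was −0.46 over the 59 subunits and 0 over all genes. The Cufflinks intervals of the fractions lay apart for 41 subunits, of which 38 were lower in pHes1_EPC and 3 were higher, while by the same criterion 21.8% of all genes were lower and 22.1% were higher. At P4, 10 subunits were more than 2-fold lower in pHes1_EPC and 4 were higher, while 5.42% of all genes were lower and 9.85% were higher. The median difference was then −0.12 over the subunits and 0 over all genes, and the intervals lay apart for 26 lower and 8 higher subunits, beside 18.6% and 28.3% of all genes. With a pseudocount of 0.1 in place of 1, the lower subunits numbered 34 at P1 and 22 at P4, and the higher ones 2 and 6. The shares of all genes at that pseudocount are not given here, so these counts cannot be set against the shares above. The P1 and P4 comparisons share no library. As a description across genes, which are not independent replicates, the differences at both ages had a Spearman rho of 0.590 over the 59 subunits and of 0.644 over all genes.

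**Figure D2:**
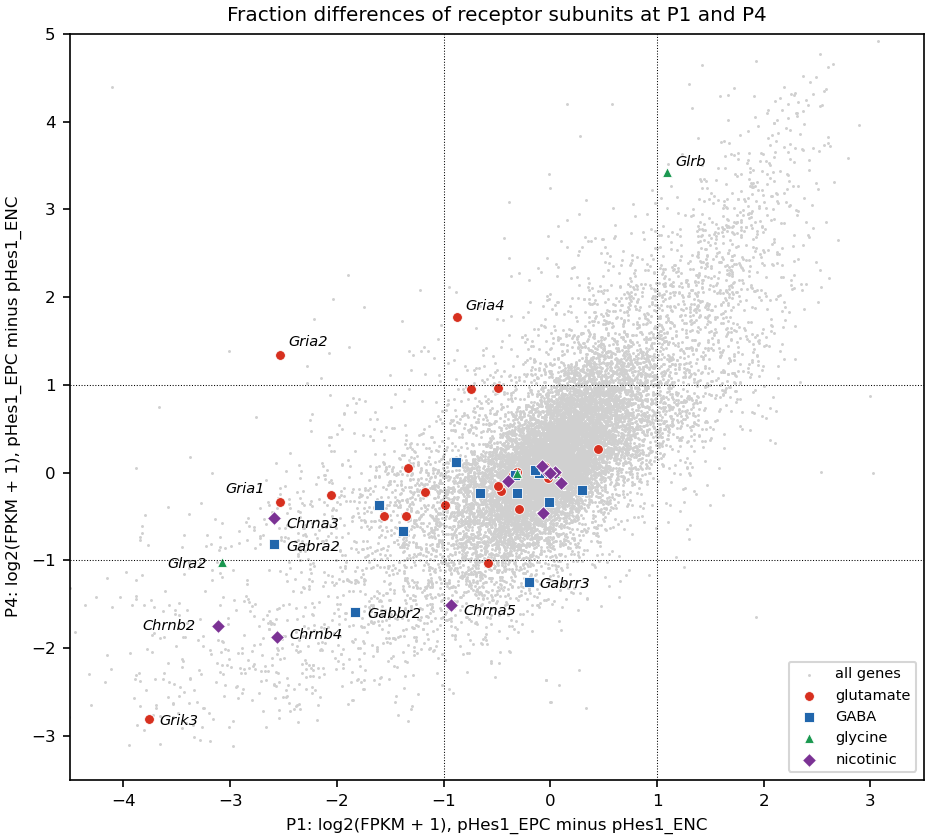
Difference of log2(FPKM + 1) between pHes1_EPC and pHes1_ENC at P1 (horizontal axis) and at P4 (vertical axis) for all genes (grey) and for 54 of the 59 subunits by transmitter, with dotted lines at 2-fold; 30 genes, none of them a subunit, lie outside the axes. Glrb lies beyond 2-fold in pHes1_EPC at both ages, Gria2 (−2.54 at P1 and 1.34 at P4) lies at the upper left, and Grik3 lies lowest at the left.

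Taking both ages together, 7 subunits were more than 2-fold lower in pHes1_EPC at P1 and again at P4, among them Grik3, Gabbr2, Glra2, Chrnb2 and Chrnb4, and 3.24% of all genes did the same. Glrb was 1 of 2 subunits that were more than 2-fold higher at both ages, as were 4.61% of all genes. A further 10 subunits were lower at P1 and within 2-fold at P4 (Gria1, Gria3, Grin1, Grid1, Grm4, Grm8, Gabra2, Gabrb2, Gabbr1 and Chrna3), and 3 were within 2-fold at P1 and lower at P4 (Grik1, Gabrr3 and Chrna5), beside 3.43% and 2.17% of all genes. Gria4 was within 2-fold at P1 and higher at P4, as were 5.11% of all genes. Gria2 passed 2-fold in opposite directions, lower at P1 but higher at P4, a combination found for 27 of all genes (0.124%). The other 35 subunits stayed within 2-fold at both ages, as did 79.8% of all genes.

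Glrb encodes the beta subunit of the glycine receptor, which binds the scaffold protein gephyrin and assembles with alpha subunits. Its FPKM was 2.18 (1.78 to 2.58) in pHes1_ENC and 5.80 (4.98 to 6.34) in pHes1_EPC at P1, and 0.902 (0.670 to 1.13) and 19.4 (17.3 to 20.1) in these fractions at P4. P4 pHes1_EPC was thus the highest library and P4 pHes1_ENC the lowest, and no pair of the 4 intervals overlapped. The ratio of pHes1_EPC to pHes1_ENC was 2.66 (1.93 to 3.57) at P1, and at P4 it reached 21.5 (15.3 to 30.0). The alpha subunits, which form the glycine binding site, did not share this pattern. Glra2 had an FPKM of 9.97 in pHes1_ENC and 0.301 in pHes1_EPC at P1, and 2.02 and 0.487 in these fractions at P4, and was 33.2 times (20.1 to 58.9) higher in pHes1_ENC at P1. Glra1, Glra3 and Glra4 stayed at or below 0.315 and were listed at 0 in both P4 libraries. Of the summed FPKM of the glycine receptor subunits, Glrb gave 17.5% and 30.9% in pHes1_ENC at P1 and P4, and 92.7% and 97.6% in pHes1_EPC.

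Grid1 encodes a delta glutamate receptor, of a family that binds cerebellins. Its FPKM was 3.54 in P1 pHes1_ENC, and 0.805, 0.792 and 0.860 in P1 pHes1_EPC, P4 pHes1_ENC and P4 pHes1_EPC. Its intervals in the fractions lay apart at P1 and overlapped at P4.

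AMPA receptors mediate fast excitatory transmission, and the subunit encoded by Gria2 limits the passage of calcium through them. Gria2 had an FPKM of 15.3 (14.5 to 16.2) in pHes1_ENC and 1.82 (1.57 to 2.07) in pHes1_EPC at P1, and 1.51 (1.29 to 1.73) and 5.37 (4.94 to 5.81) in these fractions at P4. It was 8.44 times (7.02 to 10.3) higher in pHes1_ENC at P1, whereas at P4 it was 3.55 times (2.86 to 4.49) higher in pHes1_EPC. Gria4, which encodes another AMPA subunit, had an FPKM of 17.6 (16.6 to 18.7) in pHes1_ENC and 9.18 (8.54 to 9.85) in pHes1_EPC at P1, and 2.66 (2.31 to 3.01) and 11.5 (10.8 to 12.3) in these fractions at P4. P4 pHes1_ENC was the lowest library for both genes, although for Gria2 its interval overlapped that of P1 pHes1_EPC, and the 4 intervals of Gria4 did not overlap. The ratio of pHes1_EPC to pHes1_ENC for Gria4 was 0.521 (0.458 to 0.592) at P1, and at P4 it was 4.33 (3.57 to 5.32). The remaining AMPA subunits were highest in P1 pHes1_ENC and low elsewhere. Gria1 had an FPKM of 6.54 in pHes1_ENC and 0.304 in pHes1_EPC at P1, and 0.518 and 0.204 in these fractions at P4. Gria3 had an FPKM of 3.86, 0.169, 0.339 and 0.118 in the same order of libraries. In both fractions and at both ages Gria4 gave the largest part of the summed AMPA FPKM, from 40.6% in P1 pHes1_ENC to 80.0% in P1 pHes1_EPC.

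Kainate receptor subunits fell into separate patterns. Grik5, which encodes an auxiliary high-affinity subunit, varied least of the 5, with an FPKM of 34.1 in pHes1_ENC and 24.5 in pHes1_EPC at P1, and 25.8 and 22.1 in these fractions at P4. Grik3 had an FPKM of 29.4 (28.2 to 30.2) in pHes1_ENC and 1.25 (1.10 to 1.40) in pHes1_EPC at P1, and 39.1 (37.5 to 39.6) and 4.74 (4.39 to 5.08) in these fractions at P4. Both pHes1_ENC libraries lay above both pHes1_EPC libraries, by 23.5 times (20.2 to 27.5) at P1 and 8.25 times (7.39 to 9.02) at P4, and the difference of −3.76 at P1 was the lowest among the 59 subunits. Grik2, which encodes a pore-forming subunit, had an FPKM of 8.10 in pHes1_ENC and 5.47 in pHes1_EPC at P1, and 2.09 and 5.03 in these fractions at P4. Grik4, which encodes the other high-affinity subunit, had an FPKM of 2.30, 0.980, 0.167 and 1.25 in the same order. Both genes were higher in pHes1_ENC at P1 and higher in pHes1_EPC at P4, with intervals apart at each age. At P4 the ratio was 2.41 (1.93 to 3.04) for Grik2 and 7.49 (4.01 to 16.8) for Grik4, and their differences of 0.96 and 0.95 lay just inside the 2-fold limit because 1 is added to each FPKM. Grik1, a subunit used by OFF bipolar cells, had an FPKM of 0.648, 0.102, 3.43 and 1.17 in the same order and was thus higher at P4 than at P1 in both fractions.

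The fraction with the higher FPKM differed between P1 and P4, with intervals apart at each age, for Gria2, Gria4, Grik2 and Grik4, that is for 4 of 59 subunits (6.78%) and for 3.45% of all genes. All 4 encode AMPA or kainate subunits, and in each of them the FPKM of P4 pHes1_ENC was the lowest of the 4 libraries. Whether the difference at P4 differed from that at P1 beyond the spread between animals was not tested.

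**Figure D3:**
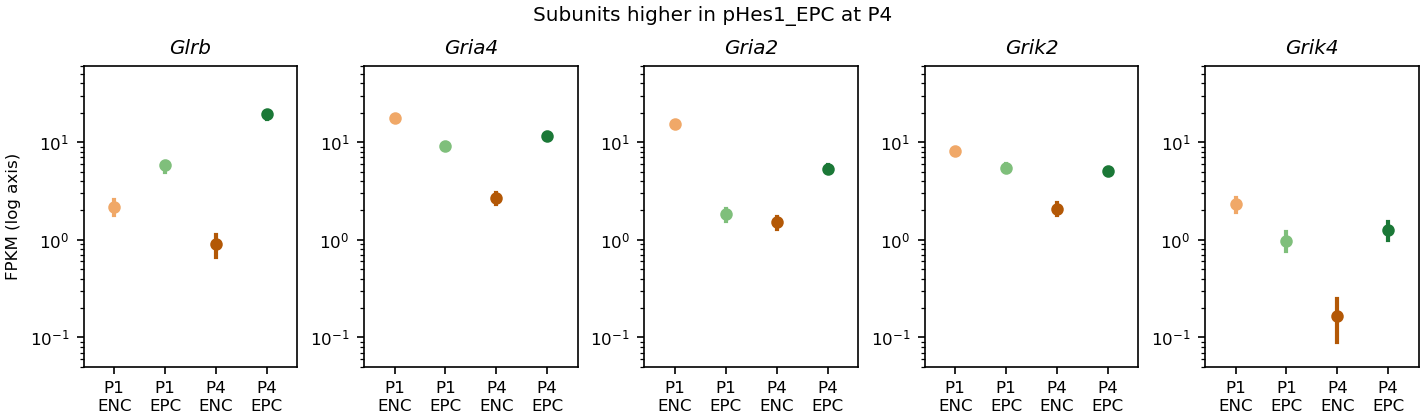
FPKM of Glrb, Gria4, Gria2, Grik2 and Grik4 in each library on a log axis, with vertical lines for the 95% Cufflinks interval (counting error only). Glrb reaches 19.4 in P4 pHes1_EPC, and all 5 subunits are lowest in P4 pHes1_ENC.

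NMDA receptors, which need glutamate and a co-agonist to open, were expressed at low levels. Grin1, which encodes the obligatory subunit, had an FPKM of 2.62 in pHes1_ENC and 0.232 in pHes1_EPC at P1, and 0.630 and 0.155 in these fractions at P4. Grin3b had an FPKM of 1.08, 0.695, 1.46 and 0.841 in the same order. The 5 other subunits (Grin2a to Grin2d and Grin3a) did not exceed 0.519. In the annotation, 32.1% of the exon bases of Grin3b and 13.5% of those of Grin1 lie on exons of a gene on the opposite strand, and since the protocol describes no step that marks strand, reads of these genes and of their partners cannot be told apart.

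Among the metabotropic glutamate receptors, Grm7, a presynaptic receptor of low affinity, was expressed in both fractions, with an FPKM of 7.31 in pHes1_ENC and 10.3 in pHes1_EPC at P1, and 6.29 and 7.78 in these fractions at P4. It gave 57.7% of the summed FPKM of the family in P1 pHes1_ENC and 95.9% in P1 pHes1_EPC. Grm2, Grm4 and Grm8 encode receptors that lower cyclic AMP and reached an FPKM of 1 only in P1 pHes1_ENC. There Grm2 had 1.29, Grm4 had 1.42 and Grm8 had 1.81, and in P1 pHes1_EPC the FPKM of these genes was 0.159, 0.0688 and 0.0987. Grm3 and Grm5 did not exceed 0.360.

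GABA-A receptors are chloride channels that combine alpha, beta and gamma subunits. Their summed FPKM was 44.9 in pHes1_ENC and 5.61 in pHes1_EPC at P1, and 24.8 and 6.39 in these fractions at P4. Gabra2 had an FPKM of 7.74 in pHes1_ENC and 0.455 in pHes1_EPC at P1, and 1.04 and 0.159 in these fractions at P4. Gabra3 had an FPKM of 3.41, 1.39, 0.546 and 0.677, with overlapping intervals between the fractions at P4. Gabra4 to Gabra6 did not exceed 0.306. Gabrb2 had an FPKM of 2.40, 0.119, 0.395 and 0.0838, and Gabrb1, Gabrg1 and Gabrg3 did not exceed 0.441.

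The rho subunits form GABA channels that are known from bipolar cells. Gabrr3 had an FPKM of 0.145 in P1 pHes1_ENC, was listed at 0 in P1 pHes1_EPC, and had 3.70 (2.72 to 4.15) in P4 pHes1_ENC and 0.983 (0.608 to 1.35) in P4 pHes1_EPC. Gabrr1 and Gabrr2 did not exceed 0.798 and share 4.18% and 4.54% of their 36-base pieces with each other. GABA-B receptors are pairs of the products of Gabbr1, which binds GABA, and Gabbr2, which couples to G proteins. Gabbr1 had an FPKM of 35.3 in pHes1_ENC and 12.9 in pHes1_EPC at P1, and 23.3 and 14.3 in these fractions at P4. Gabbr2 had an FPKM of 4.19, 0.462, 3.67 and 0.558 in the same order. The partners thus differed unequally, since pHes1_ENC exceeded pHes1_EPC at P4 by 1.62 times (1.44 to 1.82) for Gabbr1 and by 6.58 times (4.54 to 10.1) for Gabbr2.

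**Figure D4:**
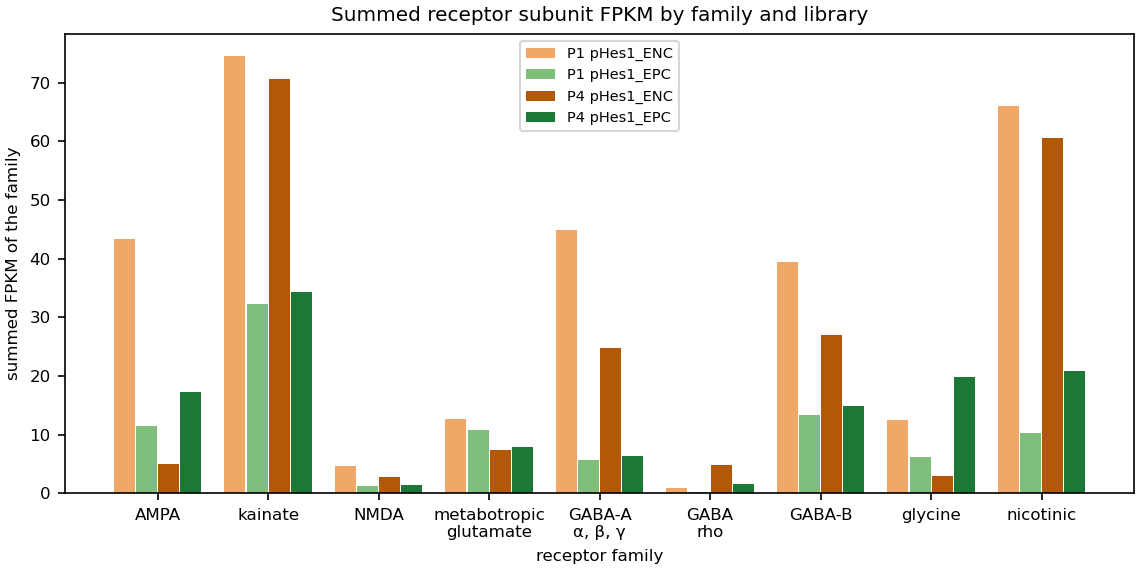
Summed FPKM of the subunits of 9 receptor families in the 4 libraries, with 1 bar for each library and no error bar since each is a single library. Kainate and nicotinic sums exceed 60 in both pHes1_ENC libraries, and the AMPA, glycine and metabotropic glutamate sums of P4 are higher in pHes1_EPC than in pHes1_ENC.

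Nicotinic receptors are cation channels opened by acetylcholine. The genes Chrna5, Chrna3 and Chrnb4, whose products assemble with each other, lie next to each other on chromosome 9 (mm9, 54828687 to 54896351), with 3563 bases between Chrna5 and Chrna3 and 1596 between Chrna3 and Chrnb4. Chrnb4 had an FPKM of 21.4 in pHes1_ENC and 2.78 in pHes1_EPC at P1, and 33.7 and 8.47 in these fractions at P4. Chrna3 had an FPKM of 24.3, 3.21, 10.7 and 7.16 in the same order. Chrna5 had an FPKM of 1.96, 0.556, 5.61 and 1.32. All were higher in pHes1_ENC at each age, but with age in pHes1_ENC Chrnb4 and Chrna5 were higher at P4 and Chrna3 was lower. Chrnb2, the beta subunit of the most common neuronal receptors, had an FPKM of 15.0 in pHes1_ENC and 0.846 in pHes1_EPC at P1, and 8.02 and 1.69 in these fractions at P4. Chrnb1, a subunit of the muscle receptor, stayed between 1.14 and 2.04 with overlapping intervals between the fractions. The remaining alpha subunits (Chrna1, Chrna2, Chrna6, Chrna7, Chrna9 and Chrna10) did not exceed 0.771, and Chrnb3 did not exceed 0.712.

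Gria2 and Glrb are also neighbours, on the minus strand of chromosome 3, at 80488858 to 80606713 and 80647526 to 80717546 (mm9), with 40812 bases between them. Their FPKM differed in opposite directions at P1 and in the same direction at P4. Of the 59 subunits, 20 lay in 8 such groups of genes less than 200000 bases apart.

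Between P1 and P4 the subunits of the pHes1_ENC fraction were lower more often than higher. In pHes1_ENC 15 of 59 subunits were more than 2-fold lower at P4 and 3 were higher, while 5.94% of all genes were lower and 2.77% were higher. The median difference was −0.25 over the subunits and 0 over all genes. With a pseudocount of 0.1, 27 subunits were lower and 4 were higher, with no share over all genes given at that setting. All 4 AMPA subunits were among the 15, with FPKM ratios of P1 to P4 of 12.6 for Gria1, 10.2 for Gria2, 11.4 for Gria3 and 6.62 for Gria4. The others included Grik2, Grik4, Grin1, Grid1, Grm4, Gabra2, Gabra3, Gabrb2, Glra2 and Chrna3. The 3 that were higher at P4 were Gabrr3, Grik1 and Chrna5, with ratios of P4 to P1 of 25.5 (10.9 to 166), 5.29 and 2.86.

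In pHes1_EPC 4 subunits were more than 2-fold higher at P4 than at P1, namely Glrb, Grik3, Chrnb4 and Gria2, and none was more than 2-fold lower, while 4.17% of all genes were higher and 2.57% were lower. The ratios were 3.34 (2.73 to 4.04) for Glrb, 3.79 (3.15 to 4.62) for Grik3, 3.04 (2.34 to 3.95) for Chrnb4 and 2.95 (2.39 to 3.70) for Gria2. The median difference was 0 over the subunits and over all genes. With a pseudocount of 0.1, 10 subunits were higher and 6 were lower at P4, again with no share over all genes given at that setting. Intervals lay apart for 16 higher and 9 lower subunits, beside 27% and 14.8% of all genes. The age comparisons use the same libraries as the fraction comparisons and are no separate evidence.

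With age, FPKM was lower in pHes1_ENC and higher in pHes1_EPC, with intervals apart in each fraction, for Gria2, Gria4, Glrb, Chrna3 and Chrnb2, that is for 5 of 59 subunits. Opposite age differences of this kind in either direction were found for 6.16% of all genes. The difference of Gria4 in pHes1_EPC (0.30) was small, and with all libraries rescaled to the same total it became −0.01. Over the genes with an FPKM of at least 1, the median difference was 0.17 between the fractions at P4 and 0.19 between the ages in pHes1_EPC, and both were nearer to 0 after rescaling by median of ratios (−0.01 and 0.03). Relative to those shifts, the P4 differences of 3.42 for Glrb, 1.77 for Gria4 and 1.34 for Gria2 were larger.

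Proteins that assemble, carry or anchor these receptors were taken from lists of genes. Among 34 AMPA, kainate and delta receptor partners and glutamate scaffolds, 12 were more than 2-fold lower and 1 was higher in pHes1_EPC at P1, against 3 lower and 5 higher at P4. Over all genes the shares were 6.79% lower and 6.1% higher at P1, and 5.42% lower and 9.85% higher at P4. Between the ages in pHes1_ENC, 16 of the 34 were lower at P4 and none was higher, beside 5.94% and 2.77% of all genes. Dlg4, the main scaffold of excitatory synapses, had an FPKM of 39.8 in pHes1_ENC and 10.5 in pHes1_EPC at P1, and 59.5 and 15.3 in these fractions at P4, and Dlg2, a related scaffold, had 26.8, 0.990, 4.95 and 1.09. Nlgn1, an adhesion protein of excitatory synapses, had 15.5, 39.7, 6.59 and 30.4, and was thus higher in pHes1_EPC at each age. Cnih3, an AMPA receptor chaperone, had 0.283, 0.640, 0.159 and 2.56. Cacng4, an AMPA receptor auxiliary subunit that was picked after its values were seen, had 39.6, 25.8, 5.58 and 16.7, with differences of −0.60 at P1 and 1.42 at P4.

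Of 11 partners of inhibitory receptors, 2 were lower and 1 was higher in pHes1_EPC at P1, and 1 was lower and 1 was higher at P4. Nlgn2, an adhesion protein of inhibitory synapses, differed by −1.69 at P1 and −0.85 at P4, Lhfpl4, a GABA-A receptor partner, by −1.41 and −1.02, and Kctd12b, of a family of GABA-B receptor partners, by 1.01 and 1.69. Of 7 genes for the assembly and modulation of nicotinic receptors, 2 were lower and 1 was higher at P1, and 1 was lower and 2 were higher at P4. The shares over all genes, to set beside both lists, were 6.79% lower and 6.1% higher at P1, and 5.42% and 9.85% at P4. Lypd6, of the Ly6 family, had an FPKM of 4.80 in pHes1_ENC and 30.1 in pHes1_EPC at P1, and 0.680 and 18.8 in these fractions at P4, and Lynx1 of the same family differed by 0.49 at P1 and 1.55 at P4. Ly6h differed by −2.05 and −1.25, and the chaperone gene Ric3 by −0.39 and −0.64. Of 7 further subunits of the same receptors (Gabrd, Gabre, Gabrp, Gabrq, Chrnd, Chrne and Chrng), none passed 2-fold on the scale of log2(FPKM + 1) between the fractions at either age. Gabre had an FPKM of 0.415 in pHes1_ENC and 1.24 in pHes1_EPC at P1, and 0.439 and 0.476 in these fractions at P4. Gabrq had 0.162, 1.06, 0.0437 and 0.150 in the same order, so both were higher in pHes1_EPC at P1. Gabrd was lower there at P1 (0.564 in pHes1_ENC and 0.182 in pHes1_EPC), and the rest did not exceed 0.113.

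The fractions and ages also differed in the markers of retinal cell types, and the part of these in the subunit values was not tested. The summed FPKM of 15 Müller glia markers was 629 in pHes1_ENC and 2091 in pHes1_EPC at P1, and 388 and 3592 in these fractions at P4, and that of 10 progenitor markers was 968, 2818, 439 and 1651. For 9 rod markers the sums were 693, 42.6, 3763 and 727, for 7 cone markers 291, 35.4, 794 and 254, and for 8 bipolar cell markers 30.3, 8.06, 51.5 and 20.2, in the same order. Gabrr3, Grik1 and Chrna5 were higher at P4 than at P1 in pHes1_ENC, as were the rod, cone, bipolar, microglia, astrocyte and red blood cell sums. Gngt2 gave most of the cone sum in pHes1_ENC, with 202 at P1 and 692 at P4. Of the other cone markers in that fraction, Gnat2 and Pde6c were lower at P4 and the rest were higher. Lhx4 gave the largest part of the bipolar sum in pHes1_ENC, with 14.9 at P1 and 20.4 at P4. Isl1 and Trpm1 were lower there at P4, and the other bipolar markers were higher. Between the fractions, 4 of the 8 bipolar markers were more than 2-fold lower in pHes1_EPC at P1 and 2 at P4. Trpm1 was more than 2-fold higher there at P4, with 0.0143 in pHes1_ENC and 1.85 in pHes1_EPC. Ganglion cell markers (9) summed to 98.3, 32.9, 11.2 and 7.59, and 7 of them were more than 2-fold lower at P4 than at P1 in pHes1_ENC. Stmn2 gave most of the ganglion sum in P1 pHes1_ENC, with 62.5 there and 11.7 in P1 pHes1_EPC. Between the fractions at P1, 2 of the 9 were more than 2-fold lower in pHes1_EPC and none was higher, with a median difference of −0.15. The 8 amacrine cell markers found summed to 180, 71.3, 83.0 and 97.5, with Chat listed at 0 in both P4 libraries. Horizontal cell markers (5) summed to 27.5, 24.6, 15.4 and 19.3. The AMPA subunits, Gabra2, Glra2 and Chrna3 were lower at P4 than at P1 in pHes1_ENC, as were the Müller glia, progenitor, ganglion, amacrine, horizontal and vessel sums.

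Genes that mark cells from outside the neural retina were examined in the same libraries. Vessel markers (5) summed to 47.1, 210, 12.3 and 190, of which Kdr alone gave 46.9, 209, 12.01 and 189. Flt1 did not exceed 1.41, Pecam1, Tek and Cdh5 did not exceed 0.142, and Cdh5 was listed at 0 in both P4 libraries. In the same order, microglia markers (6) summed to 2.19, 9.94, 6.78 and 9.58, astrocyte markers (4) to 3.72, 4.73, 7.37 and 14.1, and red blood cell genes (4) to 185, 0.568, 502 and 6.65. Glrb was higher in the pHes1_EPC libraries, as were the Müller glia, progenitor, vessel, microglia and astrocyte sums at both ages. Pdgfra gave most of the astrocyte sum at P4, with 4.11 in pHes1_ENC and 11.1 in pHes1_EPC. S100b was also higher in pHes1_EPC at P4, whereas Gfap and Pax2 were lower there, and Pax2 was lower in pHes1_EPC at P1 too. Depth was inferred from the widths of the Cufflinks intervals, since no read counts were available, and was nearly the same in the 4 libraries. By that estimate, the FPKM that 1 read adds was 1.04 to 1.07 times that of P1 pHes1_ENC in the other libraries. For subunits with an FPKM of at least 1 the interval ends lay on average 2.72% to 28.1% from the value, with medians of 10.03% to 13.5% by library. The intervals were not always centred on the value.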

How the data were processed

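Total RNA of the sorted cells was made into cDNA with random primers, and reads of 36 bases from 1 end were sequenced. The authors aligned the reads to mm9 with TopHat2 2.0.8b (at most 50 positions per read) and deposited for each library the FPKM that Cufflinks 2.1.1 estimated for each gene, with a 95% interval and a status; bcl2fastq 1.8.4 is also named in their processing notes. The deposited FPKM are scaled by transcript length and library size, and hold no read counts. A read placed at several positions can be shared between similar subunit genes.

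Of the 23021 lines of each table, 787 lines of small RNAs were left out and the highest line of a symbol was kept, which gave 21828 genes. All 59 subunits had 1 line each. Differences were taken of log2(FPKM + 1) without further scaling or a filter, and sums, shares and counts were computed with Python 3.11.15, numpy 2.4.6, pandas 2.3.3, scipy 1.17.1 and matplotlib 3.10.9. The code was tested on simulated data. Alternatives were a pseudocount of 0.1, an FPKM minimum of 1, median of ratios, equal totals, quantile normalization, summed lines, intervals apart and status OK. Subunits with an FPKM of at least 1 in a library were named with all values and the others by range, except 5 subunits that enter all counts and medians but are not reported here, and of the partner lists the 2 genes with the largest difference at both ages in each direction were named. The members, the partner lists and the marker lists were chosen with earlier results of these data known. Exon overlaps and repeated 36-base pieces were computed from GENCODE vM1 models on mm9, and promoters were matched by symbol to RefSeq (GRCm38.p6), with 6 motifs searched on both strands.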

Additional observations from a re-analysis of the deposited data

Results flagged for a closer look

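Each of the following values comes from 1 library per group, so none of the differences between ages or fractions was tested.

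With Cufflinks intervals apart at both ages, the difference between pHes1_EPC and pHes1_ENC had opposite signs at P1 and P4 for 4 of 59 subunits and for 3.45% of all genes. It was -2.54 at P1 and 1.34 at P4 for Gria2, -0.87 and 1.77 for Gria4, -0.49 and 0.96 for Grik2, and -0.74 and 0.95 for Grik4. The signs stayed opposite under each of the 5 other scalings and settings run on single genes. Only the rescalings among these could change a sign, since another pseudocount cannot and each subunit had 1 line.

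With intervals apart in both fractions, the difference between P4 and P1 had opposite signs in the fractions for 5 of 59 subunits and for 6.16% of all genes. In pHes1_ENC it was -2.70 and in pHes1_EPC 1.18 for Gria2. Gria4 had -2.35 and 0.30, Glrb had -0.74 and 1.58, Chrna3 had -1.12 and 0.95, and Chrnb2 had -0.83 and 0.54, in the same order of fractions. The signs stayed opposite under the same 5 settings for Gria2, Glrb, Chrna3 and Chrnb2, and under 4 of 5 for Gria4, whose value in pHes1_EPC became -0.01 with equal totals. Here too only the rescalings among these settings could change a sign.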

How the results depend on the processing

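Of the 92 counts and medians recomputed under the alternatives, 78 moved by no more than 1.5 times (counts) or 0.1 (medians), and 14 moved further. Part of the 78 could not move. All 59 subunits had 1 line and status OK, so summing lines and requiring status OK changed nothing. The FPKM minimum of 1 could not change a count, since a difference past 1 needs an FPKM above 1. With a pseudocount of 0.1 the subunits lower in pHes1_EPC numbered 34 at P1 and 22 at P4, those higher at P4 6 in place of 4, 27 were lower at P4 in pHes1_ENC, and in pHes1_EPC 10 were higher and 6 lower at P4, while the medians were -1.37 (P1), -0.55 (P4) and -0.69 (ages in pHes1_ENC). With an FPKM minimum of 1 the medians were -1.37 (P1), -0.66 (P4), -0.96 (ages in pHes1_ENC) and 0.51 (ages in pHes1_EPC). With quantile normalization they were -0.27 (P4) and -0.14 (ages in pHes1_ENC). A smaller pseudocount weights low FPKM more, and the minimum tests fewer genes; the cause of the quantile shift was not tested. None of the 14 changed sign.

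Of 640 values of single subunits, 605 stayed on their side of 2-fold, 31 passed it (25 with the pseudocount of 0.1) and 4 no longer did, namely Grm4 at P1 (-0.99), Grin1 (-0.82) and Grm4 (-0.78) between ages in pHes1_ENC under quantile normalization, and Gria2 between ages in pHes1_EPC (0.95) with equal totals. The 605 include the 128 values with summed lines, which could not change. No subunit past 2-fold changed direction. No paired analysis was possible because the fractions share only replicate number 1 at each age and no result comes from a test, and with 1 library in each group none could be left out. FPKM below 1 rest on few reads, so the absence of subunits listed at 0 cannot be told from low expression at this depth.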
